A study of Mus musculus with 6 samples.

Results

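The immediate early genes described here are *Fos*, *Fosb*, *Fosl2*, *Jun*, *Junb*, *Jund*, *Egr1*, *Ier2*, *Atf3* and *Nr4a1*. They were chosen by symbol, matched through the GRCm38 annotation to the Ensembl identifiers of the deposited table, and make up 10 of its 47729 genes. Expression was measured by RNA sequencing of polyadenylated RNA in the proximal epiphysis of the tibia, a block that holds articular cartilage, growth plate, the secondary ossification center and metaphyseal bone with marrow, from mice at 14 days of age. Control (3 mice) is a random-bred line with the strain label ICR, on the CD-1 background. LS1 (3 mice) is a Longshanks line from the same background, bred for tibiae that are long for the body mass. None of the mice received a treatment, each came from a different family, and each library holds the pooled left and right epiphyses of 1 mouse. LS1 is 1 selected line, so selection and other differences between lines cannot be told apart.

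The transcription factor AP-1 is a dimer that a Fos protein forms with a Jun protein, or Jun proteins form with each other or with a related factor such as ATF3. Immediate early genes are transcribed within minutes of a growth factor, mechanical load or stress, without need of new protein synthesis, and their mRNAs are short-lived. In the skeleton, Fos is needed for osteoclasts to form, Fosl2 and Junb act in chondrocytes and osteoblasts, and AP-1 sites lie in the promoters of matrix proteases such as *Mmp13*.

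The libraries held 68803249 to 76581954 reads in Control and 82227711 to 88745366 reads in LS1, so that LS1 was sequenced more deeply throughout. The values below are normalized counts, that is reads divided by a size factor of the library. Markers of cartilage (8 of 8), of osteoblasts and osteocytes (7 of 7) and of erythroid marrow (7 of 7) passed the filter on reads, as did 6 of 6 markers of skeletal muscle, a tissue that the labels do not name. *Xist*, which the inactive X chromosome transcribes, had 70194 to 71731 normalized counts in Control replicates 1 and 2 and LS1 replicate 2, and at most 221 in the other 3 libraries. The labels give no sex. Of 19308 genes tested with limma on log2(normalized count + 1), 14 passed an adjusted threshold of 0.05, which is 0.0725%.

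For no immediate early gene was a difference between LS1 and Control shown beyond the spread between mice. When p-values were adjusted over the whole table, limma called 0 of the 10 genes, and so did edgeR and DESeq2, which called 0.0363% and 2.51% of all genes. Before adjustment 1 of the 10 genes, *Atf3*, had p under 0.05 with each of the 3 tools, against 12.9% of all genes with limma, 13.2% with edgeR and 13.9% with DESeq2. The LS1 libraries all lay above the Control libraries in 2 genes, *Atf3* and *Egr1*, and below them in 0 of the 10. Among all genes the shares were 10.3% above and 8.94% below, or 19.2% without overlap. The median log2 fold change of the 10 genes was 0.14, beside 0.0054 over all genes tested. It was above 0 in 9 of the 10 genes, against 50.7% of all genes. This lean rested on 1 library: without LS1 replicate 2 the log2 fold change was above 0 in 4 of the 10 genes, with a median of -0.015. In bulk tissue, a change in the number of cells that express a gene and a change in RNA per cell cannot be told apart.

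**Figure D1:**
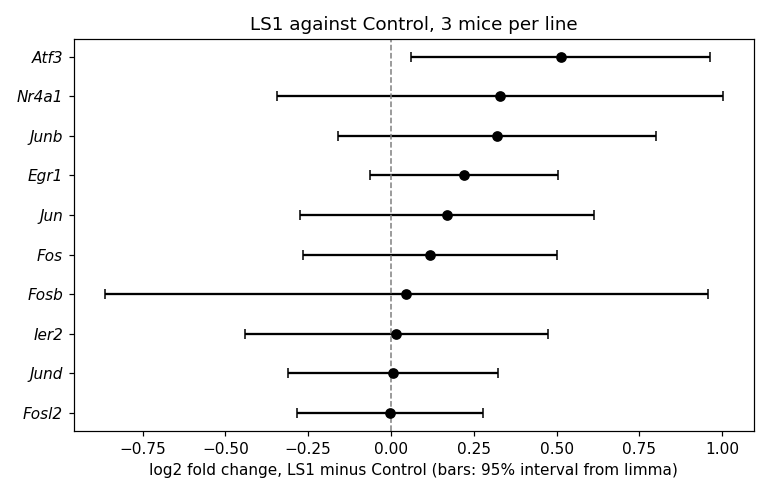
Log2 fold change of LS1 minus Control for each of the 10 genes (x axis, points), with the 95% interval from limma as bars, 3 mice per line. The interval of *Atf3* lies above 0 before adjustment for multiple tests, and the other 9 intervals include 0.

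The intervals show what size of difference remained possible. The 95% interval lay within a 2-fold change in either direction for 9 of the 10 genes. It was narrowest for *Fosl2*, at -0.28 to 0.28 on the log2 scale. For *Nr4a1* it ran from -0.34 to 1.00, for *Fosb* from -0.86 to 0.96 and for *Atf3* from 0.061 to 0.96. A 2-fold higher level in LS1 would thus still be near the edge of the interval for *Fosb*, *Nr4a1* and *Atf3*. A 2-fold lower level would be near it for *Fosb*. A 2-fold difference in either direction would be well outside the interval for *Fosl2*, *Jund*, *Fos* and *Egr1*.

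Among the Fos proteins, *Fos* encodes the founding subunit, which binds DNA only together with a Jun protein. *Fos* (ENSMUSG00000021250, chromosome 12 of GRCm38 from 85473890 to 85477273) had 1335, 1532 and 1311 normalized counts in Control and 1295, 1847 and 1431 in LS1. LS1 replicate 2 was the highest and LS1 replicate 1 the lowest of the 6, so the groups overlapped (log2 fold change 0.12, with a standard error, SE, of 0.18 and a limma adjusted p = 0.815). *Fosb* (ENSMUSG00000003545, chromosome 7 from 19302696 to 19310051) encodes a subunit that is induced together with Fos. It had 168.5, 235 and 187 normalized counts in Control and 166, 421 and 117 in LS1. The highest and the lowest value were both in LS1, and the fold change depended on LS1 replicate 2: it was 0.05 on the log2 scale (SE 0.41, limma adjusted p = 0.974) and -0.48 without that library. *Fosl2* (ENSMUSG00000029135, chromosome 5 from 32135801 to 32157842) encodes Fra-2, a subunit with slower kinetics that controls matrix production in bone and cartilage. Its normalized counts were 6615, 6675 and 6933 in Control, and 6558, 7537 and 6139 in LS1. The Control libraries lay between the LS1 libraries, and the log2 fold change was -0.0042 (SE 0.13, limma adjusted p = 0.995).

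None of the 3 Jun genes passed the test either. *Jun* (ENSMUSG00000052684, chromosome 4 from 95049034 to 95052222) encodes c-Jun, the partner of Fos and a target of the JNK kinases. It had 1780, 1351 and 1560 normalized counts in Control and 1355, 2275 and 1726 in LS1 (log2 fold change 0.17, SE 0.20, limma adjusted p = 0.760). LS1 replicate 2 stood above the other 5 libraries, which overlapped. *Junb* (ENSMUSG00000052837, chromosome 8 from 84974484 to 84978718) encodes a weaker activator that can oppose c-Jun. Its normalized counts were 873, 1023 and 935 in Control and 829, 1371 and 1426 in LS1. LS1 replicates 2 and 3 were above Control and LS1 replicate 1 below it (log2 fold change 0.32, SE 0.22, limma adjusted p = 0.562). Without LS1 replicate 1 the log2 fold change of *Junb* was 0.57, with an adjusted p of 0.209 from limma. *Jund* (ENSMUSG00000071076, chromosome 8 from 70698949 to 70700616) encodes the Jun protein that is present in most resting cells. It had 3991, 3660 and 3027 normalized counts in Control and 3470, 3385 and 3805 in LS1, and here the LS1 values lay inside the range of Control (log2 fold change 0.0052, SE 0.14, limma adjusted p = 0.994).

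All 3 Jun genes overlap exons of a gene on the opposite strand, and the sources used here do not state whether the counting used strand. *Jun* overlaps the antisense gene *Junos*, which had 27.0 to 87.7 normalized counts. *Jund* overlaps *Gm11175*, which was listed at 0 in the 6 libraries. *Junb* overlaps *Prdx2*, an abundant antioxidant gene of red blood cells with 19823 normalized counts in LS1 replicate 1 and 33131 to 44516 in the other libraries. LS1 replicate 1 was the lowest library for both *Junb* and *Prdx2*, as it was for 26.8% of all genes tested. The highest library was LS1 replicate 3 for *Junb* and Control replicate 1 for *Prdx2*. The part of shared reads in the values of *Junb* was not tested.

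*Egr1* and *Atf3* were the genes whose groups did not overlap. *Egr1* (ENSMUSG00000038418, chromosome 18 from 34859823 to 34864984) encodes a zinc finger factor that serum and mechanical load induce. It had 3087, 3051 and 2798 normalized counts in Control and 3301, 3459 and 3654 in LS1. The nearest libraries of the lines, Control replicate 1 and LS1 replicate 1, were 3087 and 3301. The log2 fold change was 0.22 (SE 0.13, limma adjusted p = 0.496), and it ran from 0.18 to 0.26 with each library left out in turn. *Atf3* (ENSMUSG00000026628, chromosome 1 from 191170296 to 191218039) encodes a stress-induced member of the ATF/CREB family that pairs with Jun proteins. Its normalized counts were 797, 865 and 655 in Control and 1087, 1368 and 881 in LS1. LS1 replicate 3 was only just above Control replicate 2, and LS1 replicate 2 was the highest. Control averaged 772 ± 107 and LS1 1112 ± 245 (SD, n = 3 mice each), and on the log2 scale LS1 was higher by 0.51 (SE 0.21, limma adjusted p = 0.332). Over the 17 alternative settings the log2 fold change of *Atf3* stayed between 0.35 and 0.67, with adjusted p-values between 0.144 and 0.647. Its unadjusted p-value was not under 0.05 in 3 of the 6 limma fits that left out 1 library: it was 0.0539 without Control replicate 1, 0.113 without Control replicate 3 and 0.138 without LS1 replicate 2.

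*Nr4a1* (ENSMUSG00000023034, chromosome 15 from 101254269 to 101274795) encodes Nur77, an orphan nuclear receptor whose activity is set by its own level. It had 738, 710 and 591 normalized counts in Control and 519, 1382 and 854 in LS1. The LS1 libraries spread on both sides of Control, from the lowest to the highest of the 6 (log2 fold change 0.33, SE 0.30, limma adjusted p = 0.680). Without LS1 replicate 1 the log2 fold change was 0.68, and without LS1 replicate 2 it was -0.022. *Ier2* (ENSMUSG00000053560, chromosome 8 from 84661331 to 84662852) encodes a short nuclear protein induced along with Fos. Its normalized counts were 1728, 1650 and 1936 in Control and 1299, 1848 and 2378 in LS1. As for *Nr4a1*, the lowest and the highest library were both LS1 (log2 fold change 0.016, SE 0.21, limma adjusted p = 0.984), but the highest was replicate 3.

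**Figure D2:**
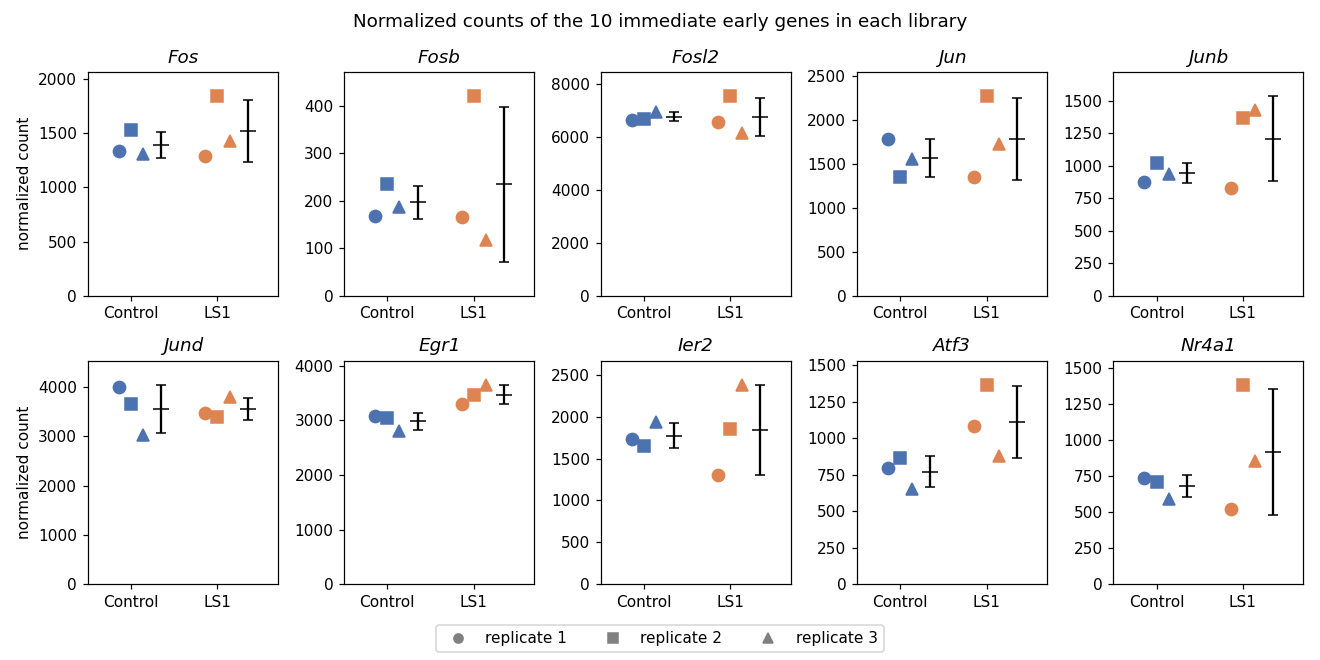
Normalized counts (y axis, from 0) of each of the 10 genes in the 3 Control and 3 LS1 libraries, with 1 symbol shape per replicate and the mean ± SD of each line in black. The square of LS1 replicate 2 is the highest point for *Fos*, *Fosb*, *Fosl2*, *Jun*, *Atf3* and *Nr4a1*, and for *Egr1* and *Atf3* all LS1 points are above all Control points.

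The genes varied more among the LS1 mice than among the Control mice. The range between the highest and the lowest library was wider in LS1 for 9 of the 10 genes, and *Jund* was the exception. Among all genes tested the LS1 range was the wider in 63.3%. The median range of the 10 genes was 0.28 on the log2 scale in Control and 0.69 in LS1, beside 0.37 and 0.50 over all genes tested. *Fosb* and *Nr4a1* had the widest LS1 ranges, 1.84 and 1.41, where the genes of the same expression decile had medians of 0.57 and 0.51. *Egr1* was as even in LS1 as in Control, with ranges of 0.15 and 0.14. Counting error was small against these differences: the fewest reads of any gene in any library were the 125 of *Fosb* in LS1 replicate 3, which give a counting error of 8.94%, and the 9 other genes had at least 534 reads. No test was made of these ranges, which rest on 3 mice each.

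**Figure D3:**
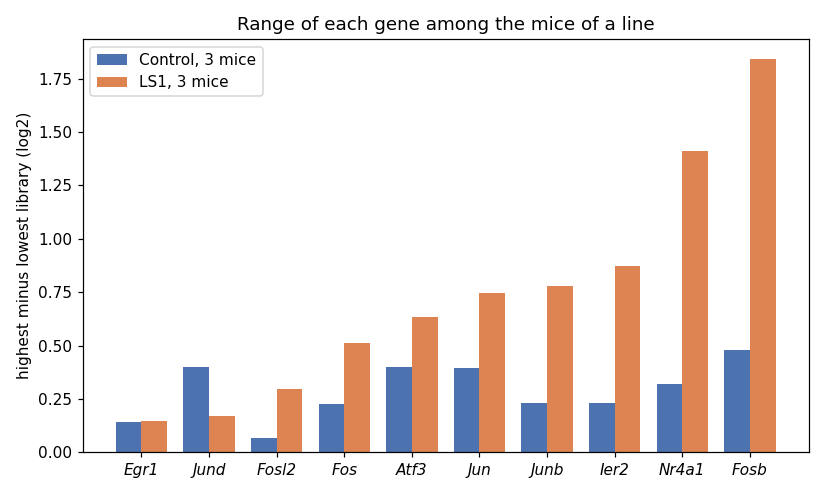
Difference between the highest and the lowest of the 3 libraries of a line on the log2(normalized count + 1) scale (y axis, bars from 0) for each gene, Control in blue and LS1 in orange. The LS1 bar is the taller for every gene except *Jund*, and the tallest LS1 bars are those of *Fosb* at 1.84 and *Nr4a1* at 1.41.

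LS1 replicate 2 was the highest library for 6 of the 10 genes (*Fos*, *Fosb*, *Fosl2*, *Jun*, *Atf3* and *Nr4a1*), while it was the highest for 15.0% of all genes tested. LS1 replicate 1 was the lowest library for 4 of the 10 genes (*Fos*, *Junb*, *Ier2* and *Nr4a1*), against 26.8% of all genes. Relative to the Control mean, the median of the 10 genes was 0.48 on the log2 scale for LS1 replicate 2, 0.17 for replicate 3 and -0.14 for replicate 1, and it lay between -0.072 and 0.059 in the Control libraries. The levels of LS1 replicate 2 were 2.14 times the Control mean for *Fosb*, 2.03 times for *Nr4a1*, 1.77 times for *Atf3*, 1.45 times for both *Jun* and *Junb* and 1.33 times for *Fos*. *Jund* was the only gene of the 10 below the Control mean in that library, at 0.951 times. In LS1 replicate 1 only *Atf3* and *Egr1* of the 10 genes were above the Control mean, *Atf3* by 0.50 on the log2 scale.

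**Figure D4:**
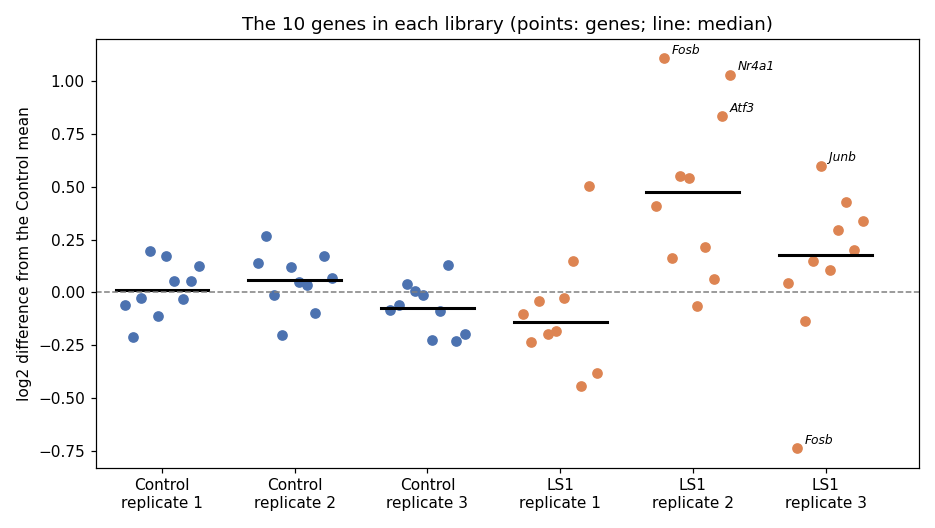
Difference of each of the 10 genes from its Control mean on the log2(normalized count + 1) scale (y axis) in each library (x axis), with the median of the 10 genes as a black line. The median is highest in LS1 replicate 2 at 0.48 and lowest in LS1 replicate 1 at -0.14, and *Fosb* in LS1 replicate 3 is the lowest point at -0.74.

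Promoter sequence is shown for *Fos*, *Fosb*, *Atf3* and *Nr4a1*, picked as examples of immediate early promoters that hold the motifs described below, and not for their values in any library. The sequences are from RefSeq on GRCm38.p6 and give the 150 bases before the annotated start site, 5′ to 3′ on the strand of the gene. They lie at chr12:85473740-85473889 (plus strand) for *Fos*, chr7:19310046-19310195 (minus strand) for *Fosb*, chr1:191183334-191183483 (minus strand) for *Atf3* and chr15:101266696-101266845 (plus strand) for *Nr4a1*. Capitals mark matches on either strand to 3 motifs. The core of the cyclic AMP response element, bound by CREB and ATF proteins, was searched as TGACG. The EGR site was searched as GCGGGGGCG, and the TATA box was searched as TATAAA.
Fos: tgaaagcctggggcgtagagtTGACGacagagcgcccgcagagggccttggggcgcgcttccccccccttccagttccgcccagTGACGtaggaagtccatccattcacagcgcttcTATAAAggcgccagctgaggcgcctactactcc
Fosb: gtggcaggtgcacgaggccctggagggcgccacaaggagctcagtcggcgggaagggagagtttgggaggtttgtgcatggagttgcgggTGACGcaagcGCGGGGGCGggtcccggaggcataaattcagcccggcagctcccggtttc
Atf3: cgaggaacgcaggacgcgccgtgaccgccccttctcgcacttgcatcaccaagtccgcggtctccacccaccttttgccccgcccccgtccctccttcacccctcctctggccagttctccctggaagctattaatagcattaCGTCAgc
Nr4a1: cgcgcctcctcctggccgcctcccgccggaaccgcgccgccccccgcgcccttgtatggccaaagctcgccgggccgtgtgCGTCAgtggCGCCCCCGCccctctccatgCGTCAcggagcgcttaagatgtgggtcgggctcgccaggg

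All 4 promoters shown hold the core TGACG, since they were picked for these motifs. In *Fos* it stands 66 to 62 bases before the start site, upstream of a TATA box at 33 to 28 bases, and a further copy stands at 129 to 125. In *Fosb* the core at 60 to 56 bases is followed by an EGR site at 50 to 42. *Nr4a1* has the same pair on the other strand, with cores at 69 to 65 and 40 to 36 bases around an EGR site at 60 to 52. In *Atf3* the core is 7 to 3 bases before the start. The RefSeq start sites used here for *Atf3* and *Nr4a1* lie well within the annotated genes. That of *Nr4a1* is at 101266846, where the annotated gene begins at 101254269. Windows of 300 bases, from 250 before to 50 after the start, were searched on both strands for 8 of the 10 genes. Those of *Egr1* and *Ier2* were not analysed here. A gene was counted if any of its windows held the motif, while the shares below are of single windows, so the measures are not quite alike. TGACG was found in 5 of the 8 genes (*Fos*, *Fosb*, *Junb*, *Atf3* and *Nr4a1*) and in 20.8% of all 32851 windows. The EGR site was found in 3 of the 8 (*Fosb*, *Fosl2* and *Nr4a1*) and in 2.91% of all windows, and TATAAA in 2 of the 8 (*Fos* and *Junb*) and in 13.6%. Further motifs were found in 0 of the 8 genes. They were the full element TGACGTCA holding the core, the AP-1 site TGACTCA, the NR4A site AAAGGTCA and the CArG box of serum response factor. They occurred in 1.79%, 5.20%, 1.51% and 1.63% of all windows. Sequence outside the windows was not searched, so a count of 0 does not mean that these genes lack the sites.

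Levels of different genes were compared as normalized counts per kb of annotated exon. In Control *Jund* was the most abundant, with a level of 2134 ± 293 per kb (SD, n = 3 mice), above 90.5% of the genes tested, and *Ier2* followed with 1164 ± 97.1 (SD, n = 3). *Fosl2* (696), *Egr1* (664), *Fos* (592), *Jun* (490), *Junb* (410) and *Atf3* (358) came next as mean levels per kb, and each of these overlapped its neighbour in the order over the 3 Control libraries. *Nr4a1* had a mean level of 194 per kb, below every library of *Atf3*. *Fosb* was the lowest at 31.5 ± 5.50 per kb (SD, n = 3), above 16.6% of the genes tested.

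**Figure D5:**
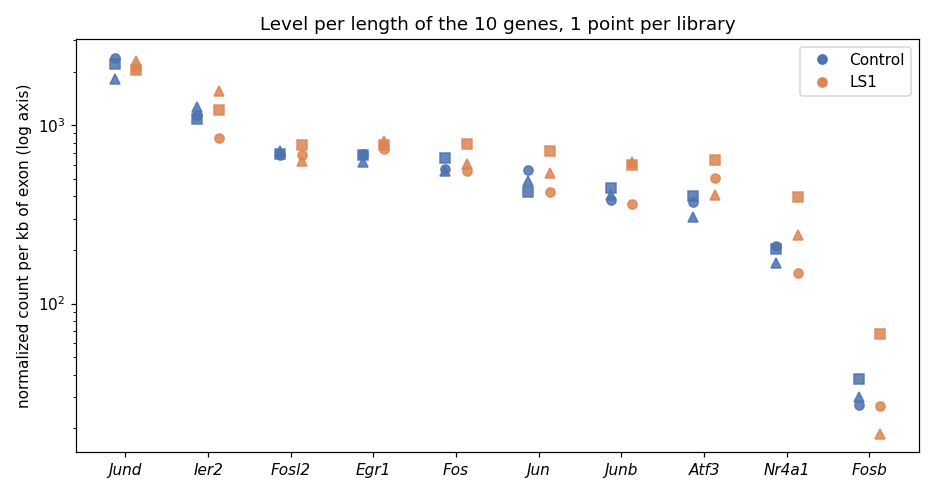
Level of each gene as normalized counts per kb of exon (y axis, log scale) in each library, with genes in the order of their Control mean and Control in blue, LS1 in orange. *Jund* is at the top at 2134 per kb and *Fosb* at the bottom at 31.5 per kb, and within each gene the lines overlap except for *Egr1* and *Atf3*.

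The makeup of the AP-1 pool was described on the same scale. With 3 mice per line the exact permutation test cannot give p under 0.1. No share could pass 0.05, so the test cannot decide whether the makeup differs. Of the summed level of *Fos*, *Fosb*, *Fosl1* and *Fosl2*, *Fosl2* made up 51.3% ± 2.45 in Control and 49.2% ± 3.45 in LS1 (SD, n = 3 each). The share of *Fos* was 43.6% ± 2.25 and 45.4% ± 1.998 (SD, n = 3 each). *Fosb* had a share of 2.07% to 2.65% in Control and of 1.41% to 4.05% in LS1. Of the summed Jun level, *Jund* made up 70.2% ± 2.76 in Control and 66.6% ± 5.91 in LS1 (SD, n = 3 each). The LS1 shares of *Jund* were 72.6%, 60.8% and 66.3%, so LS1 replicate 2, with the most *Jun*, had the smallest. The shares of *Junb* were 12.6%, 17.8% and 18.0% in LS1, where replicates 2 and 3 were above Control. The exact permutation tests of these 7 shares gave two-sided p-values between 0.3 and 1, without adjustment, where 0.1 is the smallest possible.

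The rest of the pathway was described with lists of genes grouped by function. Among all genes tested, 50.7% had a log2 fold change above 0, and 12.9% had p under 0.05 with limma before adjustment. Of 12 other AP-1 family subunits 7 had a log2 fold change above 0 and 5 below, and limma gave 0 of them p under 0.05, adjusted or unadjusted. *Batf2*, a subunit of immune cells, had the largest difference of the list and the most uneven one. It had 13.1, 19.96 and 14.4 normalized counts in Control and 122, 779 and 18.7 in LS1, so that LS1 replicates 1 and 2 stood far above Control and LS1 replicate 3 lay within its range (log2 fold change 2.90, SE 1.31, limma adjusted p = 0.431). The small Maf genes *Mafk* and *Maff* were at the other end, at -0.36 and -0.30 (limma adjusted p = 0.461 and 0.494). *Maf* had a log2 fold change of 0.25 with all LS1 libraries above Control.

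Of the other EGR and NR4A factors and the EGR corepressors, 6 of 7 genes were tested. The log2 fold change was above 0 in 6 of 6, against 50.7% of all genes, with a median of 0.22. From limma 0 of them had p under 0.05 even unadjusted, against 12.9% of all genes. *Egr4* had too few reads to be tested. *Egr2* was at 297, 498 and 295 normalized counts in Control and at 564, 564 and 367 in LS1 (log2 fold change 0.47, limma adjusted p = 0.489). Here Control replicate 2 lay above LS1 replicate 3. *Nr4a3* had a similar log2 fold change of 0.47, and the corepressors *Nab1* and *Nab2* had 0.092 and 0.15.

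Of 35 other immediate early genes 20 had a log2 fold change above 0 and 15 below, with a median of 0.071. Among all genes 50.7% were above 0. With limma 0 of the 35 had p under 0.05 after adjustment and, before it, 6, against 12.9% of all genes. Of these 6, 5 were higher in LS1. *Cebpb*, a bZIP factor, had 447, 350 and 359 normalized counts in Control and 524, 741 and 454 in LS1 (log2 fold change 0.55, limma adjusted p = 0.351). *Sgk1*, a serum- and glucocorticoid-induced kinase, had a log2 fold change of 0.45 (limma adjusted p = 0.277), and its LS1 libraries were above Control. *Arc*, a gene best known from neurons, had 188, 266 and 231 normalized counts in Control and 159, 169 and 119 in LS1, all of them lower (log2 fold change -0.61, limma adjusted p = 0.349). *Ppp1r15a*, the stress-induced phosphatase subunit GADD34, had 15992 to 16772 normalized counts in Control and 7252, 16623 and 12808 in LS1. Its lowest library was LS1 replicate 1, as for *Fos*, *Junb*, *Ier2* and *Nr4a1* (log2 fold change -0.51, limma adjusted p = 0.445).

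None of the kinases and factors that act above these genes passed the test. Of 19 upstream regulators 11 had a log2 fold change above 0 and 8 below, with a median of 0.0064, a range of -0.31 to 0.27 and 0 unadjusted p-values under 0.05 from limma. *Map2k1*, which encodes the ERK kinase MEK1, had a log2 fold change of 0.27 (limma adjusted p = 0.395) with all LS1 libraries above Control, and *Mapk8*, which encodes JNK1, also had 0.27 with overlap. *Rps6ka1*, an ERK-activated kinase, was at -0.31 and *Srf*, the serum response factor, at -0.28. Of 12 MAP kinase and ERK feedback inhibitors 7 were above 0 and 5 below, and 0 had an unadjusted p-value under 0.05 from limma. *Dusp2* was lowest at -0.38, with 641, 442 and 513 normalized counts in Control and 361, 412 and 441 in LS1. *Dusp8* was at -0.27, and *Dusp4* and *Spred1* were at 0.20 and 0.29.

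A list of 14 genes of growth plate and bone was taken as AP-1 targets, without a search for AP-1 sites in them. Of these genes, 12 had a log2 fold change above 0 and 2 below, with a median of 0.22. Among all genes 50.7% were above 0. With limma 0 of the 14 had p under 0.05 after adjustment and, before it, 5, against 12.9% of all genes. The study picked *Ptgs2*, *Ccnd1* and *Mmp13* of this list for follow-up, the first of them from these libraries, so they are not independent evidence of a direction. In the paper's qPCR of the growth plate alone, from other mice, they were not called different from Control in either Longshanks line. The means of *Ptgs2*, *Ccnd1* and *Mmp13* there were below Control in both lines. In the RNA sequencing *Ccnd1* had a log2 fold change of 0.42 (limma adjusted p = 0.264), with all LS1 libraries above Control. *Ptgs2*, the inducible cyclooxygenase, had 1283, 1411 and 1179 normalized counts in Control and 3138, 2090 and 2477 in LS1 (log2 fold change 0.98, limma adjusted p = 0.106), without overlap. *Il6* had the largest log2 fold change, 1.63, but at 1.11 to 28.3 normalized counts in Control and 15.7 to 34.5 in LS1. *Mmp13*, the collagenase of hypertrophic cartilage, was at the other end with a log2 fold change of -0.37 (limma adjusted p = 0.494), and *Timp1*, a protease inhibitor, was at -0.17.

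Several other measures moved with the libraries that stood apart. In LS1 replicate 1, 7 of 7 erythroid markers were at their lowest, with a median of -1.05 on the log2 scale relative to the Control mean. Of the skeletal muscle markers, 5 of 6 were at their lowest there, with a median of -1.71. LS1 replicate 1 was the lowest library for 26.8% of all genes tested. The summed erythroid markers ran from 444209 to 628821 normalized counts in Control and from 239059 to 427755 in LS1, and the muscle markers from 8300 to 20735 and from 4450 to 12492. In LS1 replicate 2, 3 of 7 macrophage and 3 of 8 chondrocyte markers were at their highest, against 15.0% of all genes tested. The medians in that library were 0.60 for macrophage, 0.68 for chondrocyte and -1.02 for B cell markers. In LS1 replicates 1 and 3 they were 0.16 and 0.14 for macrophage and -0.44 and -0.17 for B cell markers. For chondrocyte markers they were 0.56 and 0.43, so these were raised in all LS1 libraries and not in replicate 2 alone. The macrophage markers *Adgre1* and *Mrc1* were highest in LS1 replicate 1, and *Csf1r* and *Cd68* in Control replicate 3. The summed macrophage markers ran from 28804 to 40073 normalized counts in Control and from 37137 to 41872 in LS1, and the 7 B cell markers from 44769 to 47735 and from 27617 to 42977. None of these markers was absent from the tissue, and their part in the values of the immediate early genes was not tested. Over all LS1 and Control libraries, the median log2 fold changes were 0.49 for chondrocyte, 0.37 for hypertrophic chondrocyte and -0.043 for osteoblast and osteocyte markers. They were 0.026 for osteoclast, 0.23 for neutrophil and 0.12 for endothelial markers.

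The libraries with high *Xist* were 2 of Control and 1 of LS1. Within them, 9 of the 10 immediate early genes were higher in LS1 replicate 2 than in the Control mean, against 50.7% of all genes tested. The median log2 difference of the 10 genes was 0.45, beside 0.0051 over all genes. Within the libraries with low *Xist*, 1 of Control and 2 of LS1, 6 of the 10 genes were higher in LS1. This was near the share of all genes, 49.4%. The median of the 10 genes was 0.11, beside -0.0070 over all genes. *Atf3* differed by 0.72 and 0.58 in these comparisons, *Egr1* by 0.17 and 0.31, and *Fosb* by 1.08 and -0.42. Since LS1 replicate 2 is the sole LS1 library with high *Xist*, that mouse and its *Xist* class cannot be told apart. With the level of Y-linked genes as a covariate, *Atf3* had a log2 fold change of 0.64 (limma adjusted p = 0.273), and 0 of the 10 genes passed.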

How the data were processed

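RNA of 3 Control and 3 LS1 epiphyses was sequenced by the study. The authors mapped the reads with HISAT2 2.0.2 to GRCm38, counted them per gene with featureCounts 1.4.6 and used DESeq2. Per the labels and the values, the deposited signal is the read count divided by 1 size factor per library, without a filter, and 0 columns were left unused. Reads were recovered by dividing by the value of 1 read (0.870 to 1.11), and 100% of the values came out whole within 0.001. For Control replicate 1 that value, 1.01, is close to 1, but its values were not whole before the division, such as 8.07 for *Hspa1a*. Symbols came from GENCODE M21 on GRCm38 for 99.1% of identifiers.

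Genes with a mean of at least 20 reads were compared on log2(value + 1) by a two-sided limma test (version 3.58.1, R 4.3.3) with trend and robust moderation and Benjamini-Hochberg adjustment over all 19308. A fold change on this scale understates that of low genes. The groups are GEO's strain labels. The 17 alternatives include edgeR 4.0.16, DESeq2 1.42.0 and limma-voom on recovered reads, other normalizations, filters and pseudocounts, a block, a Y-linked covariate and each library left out. On simulated data with 90 genes changed 2-fold and 103 changed 4-fold among 19058 genes, limma recovered 55.6% of the 2-fold changes. The simulated spread followed its trend over expression level and no library stood apart, so the share in these data may differ. The 10 genes, the lists and the tests were chosen with earlier results of these data known. Of other lists, the 2 highest and 2 lowest fold changes were named, and other genes after their values were seen. Depth limits mainly *Fosb*, and p-values reflect 3 mice per line.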

Additional observations from a re-analysis of the deposited data

How the results depend on the processing

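Under the 17 alternatives, 0 of the 10 immediate early genes had an adjusted p-value under 0.05, as in 0 of 170 values. The number of genes called among all genes was 14, and it depended on the test: 7 with edgeR, 456 with DESeq2 and 8 with limma-voom. It was 45 with no filter on low counts, 9 with a mean of at least 100 reads, 3 without trend and robust moderation, and 5 to 324 when 1 library at a time was dropped, the highest without LS1 replicate 3. The cause was not tested. The median log2 fold change of the 10 genes ran from -0.015 without LS1 replicate 2 to 0.25 with the Y-linked covariate, and was also 0.25 without LS1 replicate 1. *Atf3*, *Egr1* and *Junb* kept their direction in 17 of 17 alternatives, and *Fos*, *Jun*, *Nr4a1*, *Ier2* and *Fosb* were below 0 without LS1 replicate 2. The letters A, B and C in the sample names are shared by the lines, but deviations of libraries with the same letter correlated at 0.054, 0.021 and 0.224 across genes, and 2 of 6 libraries correlated best with their own letter. With the letter as a replicate block 12 genes were called, 0 of them an immediate early gene, the median was 0.14, and the adjusted p of *Atf3* was 0.168 from limma. With 3 mice per line, a 2-fold change was often missed in the simulated data, and the values of *Fosb* rest on the fewest reads.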

Other observations

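Of 11 genes of the heat shock response, 6 had a log2 fold change above 0 and 5 below, where 50.7% of all genes were above 0. Limma gave 0 of them p under 0.05 after adjustment and 3 before it, against 12.9% of all genes. *Dnajb1*, a cochaperone that heat shock factor induces, had 7372, 7139 and 7275 normalized counts in Control and 5094, 5593 and 5373 in LS1, without overlap (log2 fold change -0.44, limma adjusted p = 0.222). *Hspb1*, a small heat shock protein, had 108, 135 and 127 in Control and 250.4, 196 and 277 in LS1 (log2 fold change 0.95, limma adjusted p = 0.220). *Hspa1a* was at 8.07 to 36.6 normalized counts in the 6 libraries (log2 fold change 0.79), and *Hspe1* had a log2 fold change of -0.20.

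The mean profile of the 10 immediate early genes over the 6 libraries, on the log2 scale and centred, was -0.070, -0.032 and -0.16 in Control and -0.18, 0.40 and 0.042 in LS1. As a description of likeness to this profile, Pearson's r over the 6 libraries was above 0.9 for 110 of the 19298 other genes tested. The 10 genes with the highest r (0.968 to 0.989) were *Il27*, *Vsig10*, *Rasgrp4*, *Fbxo6*, *Nyap1*, *Ropn1l*, *Pla2g15*, *Tgm2*, *Wfs1* and *Spint2*. *Il27* had 14.4 to 28.9 normalized counts in 5 libraries and 80.1 in LS1 replicate 2. On deviations from the group means, r was above 0.9 for 414 genes, and the 10 highest (0.993 to 0.998) were *Mafg*, *Il27*, *Gm22204*, *Lingo1*, *Foxm1*, *Tmem94*, *Rgs12*, *Zfp579*, *Pla2g15* and *Nfe2*. *Mafg* encodes a small Maf protein and *Nfe2* its partner in megakaryocytes and erythroid cells. *Mafg* had 7453, 7666 and 7137 normalized counts in Control and 5248, 7980 and 6240 in LS1. These correlations all rest on the same 6 libraries.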
